A study of Mus musculus with 8 samples.

Results

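Pancreas libraries that were low in Ctrc, the gene for chymotrypsin C, were set against libraries that were high in it. The sides were chosen by the normalized count of Ctrc itself: the 8 libraries of the study were split at 20000, which put 4 libraries on each side and left none near the line. The low side held wild-type library 2 and Daxx-deleted libraries 2, 3 and 4. The high side held wild-type libraries 1, 3 and 4 and Daxx-deleted library 1. Both sides therefore held both genotypes, but 3 of the 4 low libraries were Daxx deleted and 3 of the 4 high libraries were wild type. The sides come from a measured value and are not groups of the study, so a p-value here only says how a gene goes with the split.

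Each library came from the whole pancreas of 1 mouse aged 6 weeks. The wild-type mice carried no altered allele named in the labels, and the other 4 mice carried Daxx fl/fl alleles with a Pdx1-Cre transgene. Daxx is a histone chaperone, and Pdx1-Cre acts in the embryonic progenitors of the pancreatic epithelium, so that vessels, stroma and blood cells keep Daxx. The labels name no group with the transgene alone, and they name no strain and no sex for single libraries. Daxx was at 39.7, 58.7, 46.7 and 45.2 normalized counts in wild-type libraries 1 to 4 and at 26.8, 23.3, 29.2 and 32.5 in Daxx-deleted libraries 1 to 4. Between the sides, with genotype as a term, its log2 difference was 0.24 ± 0.23 with an adjusted p of 0.763 (limma), and it was -0.19 without that term. The reads counted to the 11789 genes listed ran from 7705789 to 10517508 per library. Of these reads, 32 digestive enzyme genes that mark acinar cells took 71.6% to 78.0%. Each side held 2 libraries with a summed normalized count of Y-linked genes over 100 and 2 under 10, so the split did not follow that level. Levels are normalized read counts as deposited, given as mean ± SD over n = 4 libraries where a mean is shown. Log2 differences are low minus high on log2(normalized count + 1), with genotype as a term, and are followed by their standard error.

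Acinar cells make most of the protein of the pancreas as inactive digestive enzymes, which are stored in zymogen granules and released into the gut. Trypsinogens are the proenzymes of trypsin, which activates the other zymogens. Chymotrypsin C belongs to the chymotrypsin and elastase family and cuts trypsinogen and trypsin, and in people its loss is linked to pancreatitis. The mouse carries a cluster of trypsinogen genes on chromosome 6, many of them close copies of each other, while Ctrc lies on chromosome 4.

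Ctrc was at 2 levels with an empty range between them. The low libraries held 4065 normalized counts in wild-type library 2, and 2723, 3946 and 4297 in Daxx-deleted libraries 2, 3 and 4. The high libraries held 68282, 73618 and 76266 in wild-type libraries 1, 3 and 4, and 57356 in Daxx-deleted library 1. The mean was 3758 ± 705 on the low side and 68881 ± 8370 on the high side, a ratio of 18.3. The highest low library and the lowest high library, the values just inside and just outside the line, differed 13.3-fold. Ctrc was not absent from the counts of the low libraries, which held 3117 to 4093 reads assigned to it. These values chose the sides and are a description, with no test. Whole tissue was measured, so fewer cells with a transcript and less of it per cell cannot be told apart.

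In GENCODE M21 on GRCm38 the gene (ENSMUSG00000062478.16) spans chr4:141814962-141846359 on the minus strand, with 2 protein-coding transcript models, 1 with nonsense-mediated decay and 2 processed transcripts. RefSeq's table for GRCm38.p6 lists Ctrc as a transcribed pseudogene and its neighbour Cela2a, an elastase gene, as protein-coding. The GENCODE spans of Ctrc and Cela2a overlap on the same strand, so both were left out of the tested genes. No window of 50 bases was shared between their longest coding transcripts. The other transcript models of Ctrc were not compared. Whether some reads counted to Ctrc came from Cela2a was therefore not tested. Cela2a did not follow Ctrc, with 477838 ± 83713 normalized counts on the low side and 426773 ± 44196 on the high side.

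No gene passed the test between the sides once genotype was a term. Of 10466 genes tested, limma called 0 at an adjusted p under 0.05, 0.00% of the genes, and the smallest adjusted p was 0.278. Before adjustment, 925 genes (8.84%) had a p under 0.05, of which 388 were higher on the low side (3.71%) and 537 lower (5.13%). With libraries scaled to equal totals this became 89 higher and 1004 lower, since that scaling moved the median of all genes to -0.14 on the log2 scale. With edgeR's quasi-likelihood test on the recovered reads 0 genes passed, and 796 had a p under 0.05 before adjustment. DESeq2 called 4 genes, Prss1 and Arhgef19 as higher and Hkdc1 and Cish as lower on the low side. Prss1 helped to propose the split, so its call is a description, which leaves 3 other genes. Cish, a suppressor of cytokine signalling picked after its values were seen, was at 167, 56.6, 113 and 108 in the low libraries and at 252, 222, 338 and 257 in the high ones, with no overlap. The low and high libraries did not overlap for 194 genes that were higher on the low side (1.85%) and for 188 that were lower (1.80%), 3.65% either way. The median gene had a 95% interval of ±0.45 on the log2 scale, about 1.37-fold either way.

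Without genotype as a term, limma called 1 gene, Prss3, which is 0.00955% of those tested. Prss3 was among the genes with which the split was proposed, so its adjusted p of 0.0434 is given as a description. Before adjustment, 815 genes (7.79%) had a p under 0.05, of which 365 were higher (3.49%) and 450 lower (4.30%). Daxx-deleted library 2 stood apart from the other low libraries in several of the genes below. Leaving it out narrows the spread of the low side in those genes. Calls made without it, here and below, are therefore a description. With genotype as a term and that library left out, limma called 9 genes: Gm10334, Arhgef19, Prss3, Prss1 and Nupr1 as higher, and Reg2, Reg3d, Prom1 and Itih4 as lower on the low side. Of these, Prss3 and Prss1 proposed the split and Gm10334 is a near copy of Prss3. Limma with genotype as a term called the 6 other genes only with that library left out. Itih4, a plasma protease inhibitor picked after its values were seen, was at 406 ± 256 against 1071 ± 439. The adjusted p of Arhgef19, Hkdc1, Cish, Gm10334, Reg2, Reg3d, Reg3a, Errfi1 and Itih4 reached 0.974, and that of Nupr1 0.977, in the least favourable of 20 alternatives.

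Of 11 tested trypsinogen genes, 4 were higher on the low side with no overlap between the sides, against 1.85% of all tested genes. These are Prss3 and Prss1, which proposed the split, and their near copies Gm5771 and Gm10334, so the separation is a description. Prss3 was at 19488 normalized counts in wild-type library 2 and at 11998, 13105 and 20875 in Daxx-deleted libraries 2, 3 and 4 on the low side. On the high side it was at 6689, 4794 and 6789 in wild-type libraries 1, 3 and 4 and at 8785 in Daxx-deleted library 1. Every low library was thus above every high one, and the mean was 16366 ± 4464 against 6764 ± 1630. The log2 difference was 1.23 ± 0.22, and it was 1.70 within the wild-type libraries and 0.76 within the Daxx-deleted ones. Prss1 was at 527 in wild-type library 2 and at 473, 671 and 897 in the Daxx-deleted low libraries, against 201, 184, 321 and 349 in the high libraries in the same order as for Prss3. Its mean was 642 ± 189 against 264 ± 83.4, a log2 difference of 1.06 ± 0.23. Prss1 and Prss3 proposed the split together with Ctrc, so their differences, and a call of either under any setting, are a description.

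Gm5771 and Gm10334, predicted trypsinogen genes of the same cluster, had the same order of sides. Gm5771 was at 16448 in wild-type library 2 and at 8851, 6844 and 11629 in the Daxx-deleted low libraries. Its high libraries were at 4363, 2004 and 4328 among the wild types and at 5720 in Daxx-deleted library 1. The lowest low library was therefore just above the highest high one. Its log2 difference was 1.46 ± 0.33, with an adjusted p of 0.520 (limma), 2.29 within the wild-type libraries and 0.64 within the Daxx-deleted ones. Gm10334 was at 317 in wild-type library 2 and at 269, 749 and 1243 in the Daxx-deleted low libraries, against 96.1, 87.6, 150 and 217 on the high side. Its difference was 1.54 ± 0.38 with an adjusted p of 0.526 (limma), and it was 1.54 within each genotype. Gm10334 passed in limma without Daxx-deleted library 2, where its difference was 1.83 with an adjusted p of 0.00503.

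**Figure D1:**
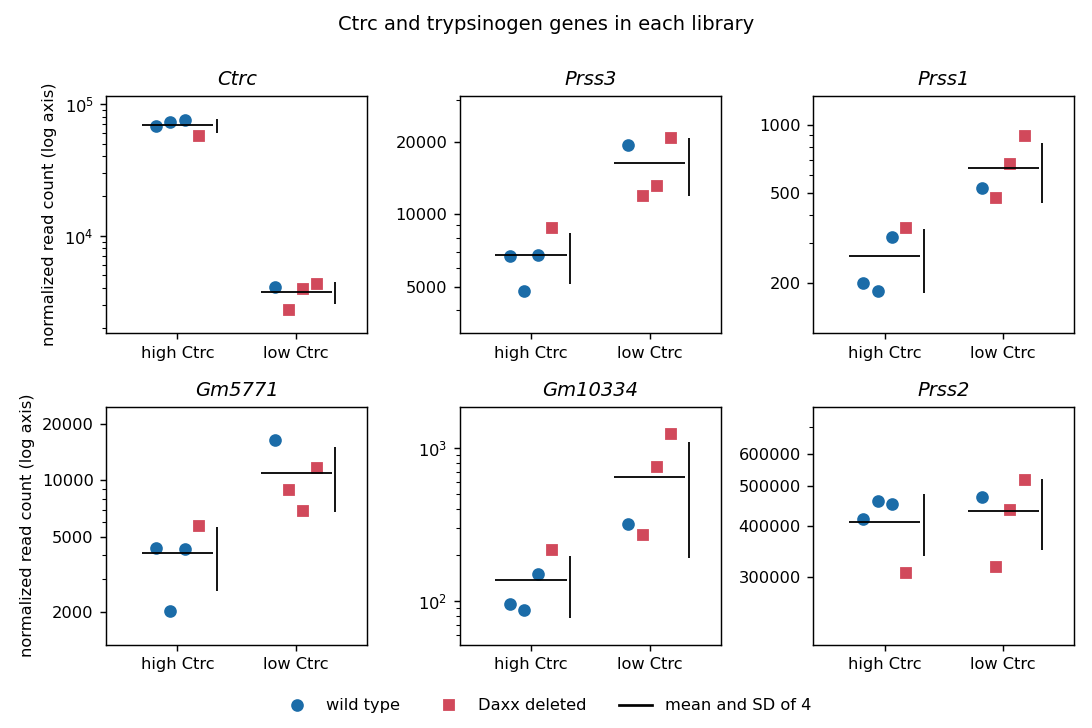
Normalized read counts on a log axis for Ctrc and 5 trypsinogen genes, with libraries high in Ctrc on the left and low in Ctrc on the right of each panel. Points are single libraries by genotype, horizontal lines are means of 4 and vertical lines are 1 SD either way. Prss3, Prss1, Gm5771 and Gm10334 are higher in every low library than in any high one, while Prss2 overlaps.

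These 4 genes make 2 pairs of near copies, so their reads are not independent. The longest coding transcripts of Prss3 and Gm10334 were 98.8% identical and those of Prss1 and Gm5771 97.4% identical. Of the 50-base windows of each transcript, 66.1% in Prss3, 63.7% in Gm10334, 54.9% in Prss1 and 55.4% in Gm5771 also occurred in another trypsinogen. The sources used here do not say how the counting divided reads between such copies, so the values of single copies are uncertain. The pairing also holds upstream of the genes. The 200 bases before each gene's start are printed from RefSeq (GRCm38.p6), 5′ to 3′ on the gene's strand, to show the 2 pairs and the more abundant Prss2 beside them. Capitals mark an E-box, CACCTG or its reverse complement CAGGTG, and the TC-box TTTCCC or its reverse complement GGGAAA. The spans are chr6:41377614-41377813 on the minus strand for Prss3, chr6:41446098-41446297 on the minus strand for Gm10334, chr6:41458730-41458929 on the plus strand for Prss1, chr6:41392156-41392355 on the plus strand for Gm5771 and chr6:41521576-41521775 on the plus strand for Prss2.
Prss3: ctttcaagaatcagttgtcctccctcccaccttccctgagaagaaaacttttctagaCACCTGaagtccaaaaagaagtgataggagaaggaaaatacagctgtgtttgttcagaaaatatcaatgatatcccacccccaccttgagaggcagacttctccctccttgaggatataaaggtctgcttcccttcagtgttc
Gm10334: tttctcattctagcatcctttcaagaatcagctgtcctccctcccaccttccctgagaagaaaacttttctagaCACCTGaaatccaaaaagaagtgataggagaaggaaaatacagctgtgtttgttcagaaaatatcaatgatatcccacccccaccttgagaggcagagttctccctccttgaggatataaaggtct
Prss1: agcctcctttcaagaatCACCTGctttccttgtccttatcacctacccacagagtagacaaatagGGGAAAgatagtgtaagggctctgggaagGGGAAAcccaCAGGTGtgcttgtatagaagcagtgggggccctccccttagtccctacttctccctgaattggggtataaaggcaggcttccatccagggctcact
Gm5771: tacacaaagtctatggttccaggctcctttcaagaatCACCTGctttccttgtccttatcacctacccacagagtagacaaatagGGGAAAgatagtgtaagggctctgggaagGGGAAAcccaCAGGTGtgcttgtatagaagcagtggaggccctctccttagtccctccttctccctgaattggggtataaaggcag
Prss2: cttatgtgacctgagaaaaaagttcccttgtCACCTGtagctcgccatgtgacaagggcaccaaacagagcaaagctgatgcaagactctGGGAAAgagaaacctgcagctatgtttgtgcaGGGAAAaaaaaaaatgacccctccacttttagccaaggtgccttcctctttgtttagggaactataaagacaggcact

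The upstream stretches of Prss3 and Gm10334 matched at 180 of 183 aligned bases and those of Prss1 and Gm5771 at 176 of 180. Across pairs they were far less alike, 59.9% between Prss1 and Prss3. Prss1 and Gm5771 each had 2 E-boxes and 2 TC-boxes in the window, Prss2 had 1 E-box and 2 TC-boxes, and Prss3 and Gm10334 had 1 E-box and no TC-box. Of the 200 bases before the start in 32851 promoters of the table, 13.9% held the E-box, 17.8% the TC-box and 2.28% both. The 2 motifs did not separate the genes that differed between the sides from Prss2, which overlapped. A promoter was found for 8 of the 11 trypsinogen genes measured, and Ctrc is named only.

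The other 7 trypsinogens had smaller differences. All 11 tested members of the 15 listed trypsinogen genes had a log2 difference above 0, except that 2210010C04Rik was at -0.044 under quantile normalization. Their median of 0.60, against 0.00051 over all tested genes, includes Prss1, Prss3 and their near copies and is a description. The other 7 ran from 0.18 for 2210010C04Rik to 0.91 for 1810009J06Rik. In limma 0 of the 11 were called. Beside Prss1 and Prss3, with which the split was proposed, and their near copies Gm5771 and Gm10334, 1810009J06Rik was the one gene with an unadjusted p under 0.05, a level that 8.84% of all tested genes reached. Try10 turned to -0.18 without wild-type library 2, and Gm2663 to -0.21 without Daxx-deleted library 1. The most abundant members overlapped between the sides. Prss2, the main anionic trypsinogen gene, was at 436245 ± 86224 on the low side and 409458 ± 70712 on the high side, a log2 difference of 0.26 with a 95% interval of -0.18 to 0.71. Try4 was at 414391 ± 79137 against 358671 ± 46646, and its interval ran from -0.02 to 0.78. 1810009J06Rik, at 388 ± 211 against 168 ± 93.5, had the largest difference of the 7, 0.91. It shared 81.5% of its transcript windows with another trypsinogen, Gm2663 83.5%, Try4 64.2% and Try5 51.5%, so the values of these copies are uncertain too and the 11 genes are not independent. The 4 genes that separated the sides are a small part of the family's reads. Together they held 0.485% to 1.41% of the trypsinogen counts in the high libraries and 1.46% to 2.19% in the low libraries, with the counts not corrected for length.

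The relatives of Ctrc among the chymotrypsins and elastases overlapped in each case. All 5 tested genes were above 0, with a median log2 difference of 0.26, or 0.11 without genotype as a term, and 0 of 5 had an unadjusted p under 0.05. Ctrb1, chymotrypsinogen B, was at 1056057 ± 237238 on the low side and 867641 ± 67709 on the high side, a difference of 0.38 ± 0.23. Cela3b, an elastase gene, was at 281334 ± 49627 against 247783 ± 31516, a difference of 0.35 ± 0.18. Ctrl, a chymotrypsin-like protease, was at 200791 ± 27431 against 186821 ± 18124. Cela1 was at 580619 ± 118819 against 532830 ± 78026. Cela3a, the least read of the 5, was at 285 ± 118 against 257 ± 37.0, and its difference of 0.19 turned to -0.16 without wild-type library 2. None of the 5 had a step between the sides like that of Ctrc.

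**Figure D2:**
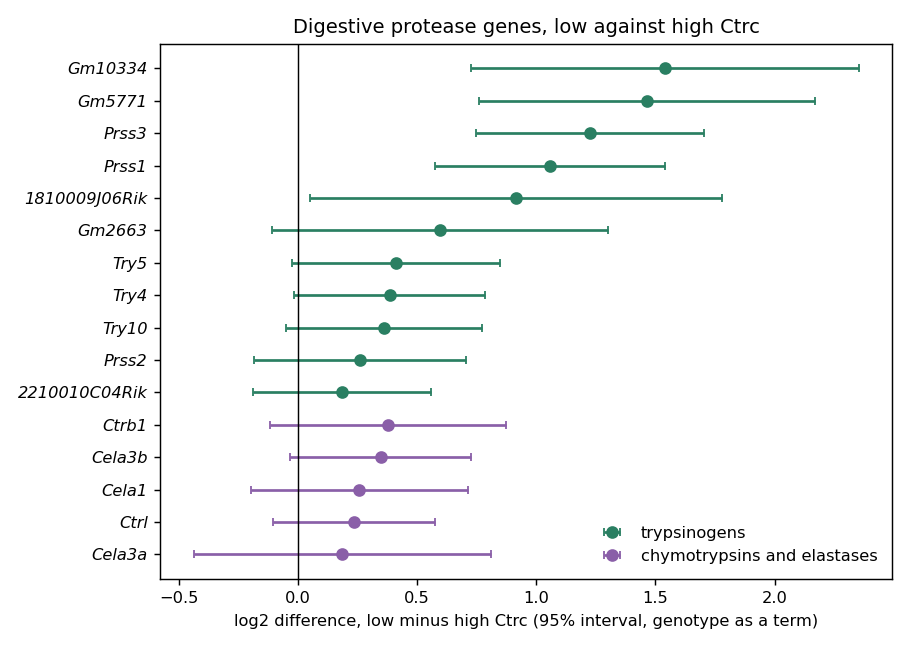
Log2 difference, low minus high Ctrc, for 11 trypsinogens and 5 chymotrypsins and elastases, with points as fitted values and bars as 95% intervals from limma with genotype as a term. Gm10334, Gm5771, Prss3, Prss1 and 1810009J06Rik have intervals above 0, and the others cross it. Prss3 and Prss1 proposed the split and Gm10334 and Gm5771 are their near copies, so the intervals of these genes are a description. The value of 2210010C04Rik turned to -0.044 under quantile normalization.

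Other secretory genes were near level. The 6 lipase genes had a median of 0.15, or 0.068 without genotype as a term, with 0 at an unadjusted p under 0.05, and with libraries scaled to equal totals 3 of the 6 lay on each side of 0. Cel, carboxyl ester lipase, was at 665423 ± 111042 on the low side and 626789 ± 56114 on the high side. Among amylases, carboxypeptidases and nucleases 2 of 8 tested genes had an unadjusted p under 0.05, both lower on the low side, against 8.84% of all tested genes. They were Amy2a1, at 168 ± 24.8 against 217 ± 30.9, and Amy1, at 441 ± 75.7 against 515 ± 56.6. Of 15 genes for protease inhibitors and zymogen granule proteins 0 had an unadjusted p under 0.05, with a median of -0.05. Spink1, the trypsin inhibitor of the granule, was at 5476 ± 715 against 6097 ± 1112, lower in mean on the low side. Its log2 difference was 0.07 ± 0.12 with genotype as a term and -0.14 without it, so that term turned its direction.

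Lectins of the Reg family, secreted proteins that acinar cells make in injury and inflammation, were the list with the lowest median. All 6 listed genes had a log2 difference below 0, with a median of -1.52, and 5 had an unadjusted p under 0.05, against 8.84% of all tested genes, although 0 were called by limma. All 6 stayed below 0 under every scaling tried. Reg2 was at 4248 in wild-type library 2 and at 4221 and 3497 in Daxx-deleted libraries 3 and 4, but at 29833 in Daxx-deleted library 2. Its high libraries held 53273, 38026 and 18386 in wild-type libraries 1, 3 and 4 and 48947 in Daxx-deleted library 1. Daxx-deleted library 2 thus lay among the high libraries, and the other low libraries lay under all of them. The difference was -2.83 ± 0.58 with an adjusted p of 0.520, and without Daxx-deleted library 2 it was -3.30 with an adjusted p of 0.000196 (limma).

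Reg3d had the same order. It was at 1028, 1117 and 1212 in wild-type library 2 and Daxx-deleted libraries 3 and 4, at 2357 in Daxx-deleted library 2, and at 3268, 3343, 2149 and 2577 in the high libraries. Its difference was -1.14 ± 0.25 with an adjusted p of 0.520, or -1.32 with an adjusted p of 0.0043 without Daxx-deleted library 2 (limma). Reg3b was at 252 to 1073 in the low libraries and at 868 to 4734 in the high ones, a difference of -1.89 ± 0.53. Wild-type library 4 was the high library that overlapped. Reg3a, chosen after its values were seen, was at 224 ± 163 against 1400 ± 1003. With genotype as a term it passed in limma when wild-type library 4 was left out, with an adjusted p of 0.0415. With all libraries its adjusted p was 0.526 (limma), so that call is a description. Reg1, also chosen after its values were seen, was at 79690 ± 21074 against 107808 ± 13695, a difference of -0.46 ± 0.21.

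**Figure D3:**
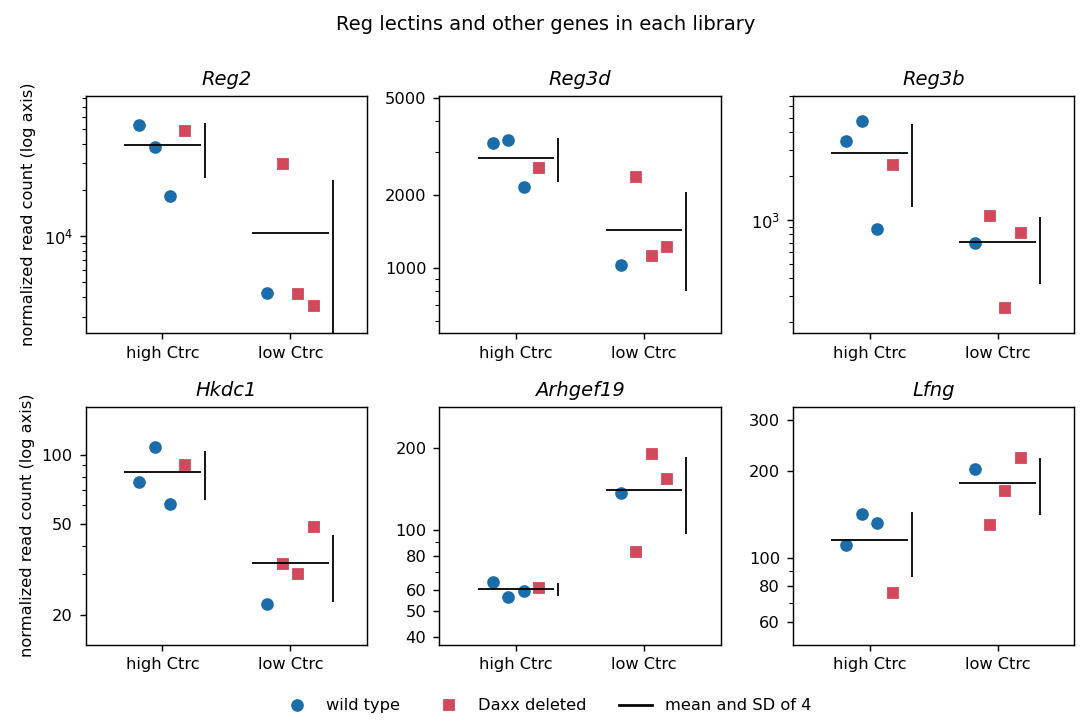
Normalized read counts on a log axis for 3 Reg genes and for Hkdc1, Arhgef19 and Lfng, with libraries high in Ctrc on the left and low in Ctrc on the right. Points are single libraries by genotype, horizontal lines are means of 4 and vertical lines are 1 SD either way, running off the panel where the SD exceeds the mean. Daxx-deleted library 2 lies among the high libraries for Reg2 and Reg3d, and Hkdc1 and Arhgef19 do not overlap between the sides.

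Hkdc1, a hexokinase-related enzyme that takes part in glucose phosphorylation, had the smallest p of all genes. It was at 22.2 in wild-type library 2 and at 33.3, 30.2 and 48.3 in Daxx-deleted libraries 2, 3 and 4, against 75.8, 108 and 61.1 in wild-type libraries 1, 3 and 4 and 89.8 in Daxx-deleted library 1. The sides did not overlap, and the difference was -1.54 ± 0.26 with an adjusted p of 0.278 in limma and 0.0146 in DESeq2. It was -1.80 within the wild-type libraries and -1.28 within the Daxx-deleted ones. Arhgef19, a guanine nucleotide exchange factor, was at 137, 82.5, 190 and 153 in the low libraries in that order and at 64.3, 56.5, 59.3 and 60.9 in the high ones. The high libraries lay close together while the low ones were spread widely. The difference was 1.15 ± 0.24 with an adjusted p of 0.520 in limma and 0.0422 in DESeq2.

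Among the genes with the next smallest p, Lfng and Pdia3 overlapped between the sides and Enpp1 did not. Lfng, a glycosyltransferase that modifies Notch receptors, was at 181 ± 40.0 on the low side and 115 ± 29.2 on the high side. Enpp1, a membrane nucleotide pyrophosphatase, was at 73.5 ± 17.4 against 117 ± 21.4, a difference of -0.88 ± 0.20. Pdia3, a disulfide isomerase of the endoplasmic reticulum, was at 666 ± 155 against 850 ± 56.7, a difference of -0.60 ± 0.14. Each of the 3 had an adjusted p of 0.520 in limma. Of 13 tested p53 target genes, 2 were higher and 1 lower at an unadjusted p under 0.05, with a median of -0.04. Over all tested genes 3.71% were higher and 5.13% lower at that level. In that list 2 genes were higher and 1 lower with no overlap, against 1.85% and 1.80% of all tested genes. Trp53inp1, a p53 target gene with a role in autophagy, was at 262, 407, 266 and 204 in the low libraries and at 464, 817, 566 and 428 in the high ones. It did not overlap, and its difference was -0.90 ± 0.24.

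Of 11 tested transcription factors of the acinar lineage limma called 0. An unadjusted p under 0.05 was reached by 2, both higher on the low side, against 3.71% of all tested genes in that direction. The median difference was 0.16, with 8 genes above 0. With libraries scaled to equal totals it was 0.016, with 6 above 0 and 1 at such a p. Ptf1a, a helix-loop-helix factor that drives acinar enzyme genes and binds E-boxes with Rbpjl, was at 189 ± 25.7 against 146 ± 38.9, a difference of 0.56 ± 0.20 (limma adjusted p of 0.527). Foxa2, a forkhead factor of foregut tissue, was at 94.1 to 116 on the low side and 50.6 to 81.1 on the high side, a difference of 0.48 ± 0.20. Gata4 was at 309 to 430 against 256 to 306 and did not overlap either. Thus 2 of the 11 were higher with no overlap, against 1.85% of all tested genes. Rbpjl, the partner of Ptf1a, was at 2933 ± 808 against 2670 ± 524, and Bhlha15, which shapes the secretory machinery, was at 1971 ± 228 against 1836 ± 271.

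Genes of the unfolded protein response, which adjusts folding capacity in the endoplasmic reticulum, lay mostly below 0. Of 22 tested, 18 had a log2 difference below 0 and 4 above, with a median of -0.22, and 3 had an unadjusted p under 0.05, against 8.84% of all tested genes. With libraries scaled to equal totals 21 were below 0 and 13 had such a p. Without wild-type library 2 the split was 14 below and 8 above, with a median of -0.073. Dnajb9, a cochaperone of the endoplasmic reticulum, was at 87.4, 152, 82.3 and 78.7 in the low libraries and at 193, 96.4, 120 and 233 in the high ones, a difference of -0.90 ± 0.28. Daxx-deleted library 2 again lay among the high libraries. Syvn1, a ubiquitin ligase of the degradation pathway there, was at 606 ± 128 against 878 ± 371. Hsp90b1, a chaperone, was at 2680 ± 818 against 2961 ± 470. Hspa5, the main chaperone of the compartment, was at 6539 on average in the low and 7105 in the high libraries, with 0 of these genes called by limma. Among 9 tested heat shock genes 4 were above 0 and 5 below, with a median of -0.29, or -0.14 without genotype as a term. The median was also -0.14 without wild-type library 2, and -0.074 without Daxx-deleted library 1. Their summed level was 2316 to 3289 on the low side and 2897 to 3037 on the high side. An unadjusted p under 0.05 was reached by 3 of the 9, all lower on the low side, against 8.84% of all tested genes. Hsph1, a cytosolic chaperone, was at 76.1 ± 19.8 against 104 ± 12.9.

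Injury and metaplasia genes showed no common direction. Among 9 tested genes of the pancreatitis list 1 was higher and 1 lower at an unadjusted p under 0.05. Over all tested genes 3.71% were higher and 5.13% lower at that level. Nupr1, a stress-response regulator, was at 6224, 2749, 5143 and 5527 in the low libraries and at 3701, 4290, 3670 and 3595 in the high ones. Daxx-deleted library 2 was its lowest library, and without it the difference of 0.47 became 0.63 with an adjusted p of 0.0403 (limma). Klf6, an immediate-early transcription factor, was at 75.6 to 132 against 124 to 347. Among 17 tested metaplasia genes the median was 0.03, and Prom1, a membrane marker of duct-like progenitors, was at 296, 509, 122 and 129 in the low libraries against 436 to 670 in the high ones.

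Markers of other cell types gave no list that stood apart. Of all tested genes, 8.84% had an unadjusted p under 0.05, 3.71% higher and 5.13% lower on the low side. The 10 tested ductal genes had a median of 0.03 with 2 higher at an unadjusted p under 0.05, and their summed level was 1364 to 1552 on the low side and 1363 to 1607 on the high side. The 9 tested macrophage and myeloid genes had a median of 0.06 with 0 at that p, and sums of 356 to 804 against 459 to 669. The 7 islet hormone genes had a median of 0.02 with 0 at that p, and sums of 1695 to 7016 against 1557 to 7216. The 15 stroma genes had a median of 0.24, or 0.072 without genotype as a term, with 1 at that p, Col1a1, a collagen chain, at 790 ± 255 against 512 ± 140. Of the T cell list 1 of 8 genes was listed in the table, and of the B and plasma cell list 1 of 8. The 10 endothelial, 6 adipocyte, 5 erythroid and 1 gut epithelial genes tested had 0 at that p. Of 11 proliferation genes 9 were above 0 with a median of 0.19 and 0 at that p. The list's summed level was 840 in Daxx-deleted library 2, 436 to 471 in the other low libraries and 399 to 463 in the high ones. Daxx-deleted library 2 also had the highest macrophage and adipocyte sums, 804 and 920.

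**Figure D4:**
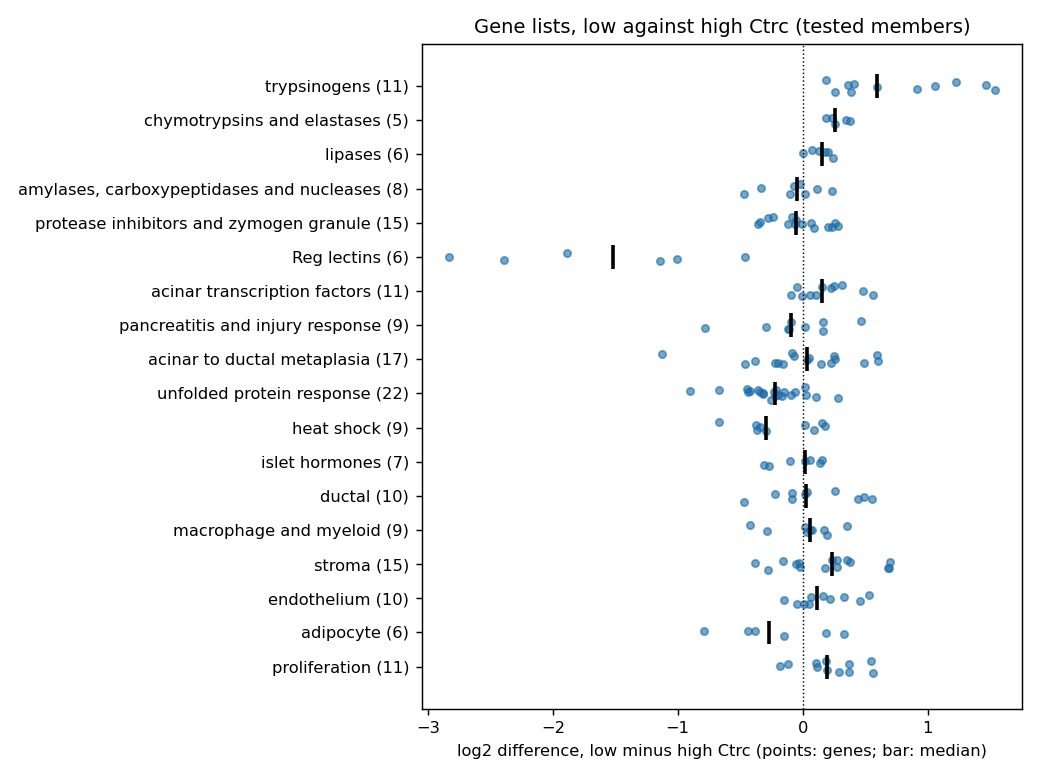
Log2 difference, low minus high Ctrc, of the tested members of 18 gene lists, with points as genes, bars as the list's median and the number tested in brackets. The median of the 6 Reg lectins lies furthest below 0 of the 18 medians, and the trypsinogens lie above 0, 2210010C04Rik falling below 0 under quantile normalization. The trypsinogens include Prss1 and Prss3, which proposed the split, and their near copies, so their median is a description.

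Genes around Ctrc were examined by distance. Within 10 Mb of Ctrc on chromosome 4, 25 of 175 tested genes (14.3%) had an unadjusted p under 0.05, against 8.84% over all tested genes, 15 of them higher and 10 lower on the low side. Within 2 Mb the count was 3 of 24 (12.5%) and beyond 20 Mb on the same chromosome 32 of 362 (8.84%). Limma called 0 of these genes, and neighbouring genes were not treated as independent. The immediate neighbours overlapped between the sides. Casp9, an initiator caspase whose span reaches into that of Ctrc on the other strand, was at 21.4 ± 6.2 against 21.1 ± 8.5, and Efhd2, 0.0118 Mb away, was at 114 ± 17.2 against 115 ± 10.7.

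Within 2 Mb, 5 of 24 genes did not overlap between the sides, 3 higher and 2 lower on the low side, against 3.65% of all tested genes. They were chosen after their values were seen, apart from Arhgef19, which lies 0.557 Mb from Ctrc. Tmem51, a membrane protein gene 0.185 Mb away, was at 17.0, 26.7, 22.9 and 16.8 in the low libraries and at 30.0, 43.8, 38.1 and 37.2 in the high ones, a difference of -0.91 ± 0.27. Ddi2, a protease that processes a transcription factor of the proteasome genes, was at 254 ± 24.5 against 302 ± 20.4. Sdhb, a subunit of succinate dehydrogenase, was at 386 ± 17.6 against 332 ± 14.9, and Rcc2, a regulator of chromosome condensation, was at 536 ± 90.7 against 380 ± 23.2. Errfi1, an inhibitor of epidermal growth factor receptor signalling 9.01 Mb away, was at 102 ± 13.8 against 446 ± 381. Wild-type library 3 was at 1017 and the other high libraries at 233 to 275. With genotype as a term Errfi1 passed in limma without wild-type library 3, with an adjusted p of 0.0246. That library stood apart, so the call is a description.

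**Figure D5:**
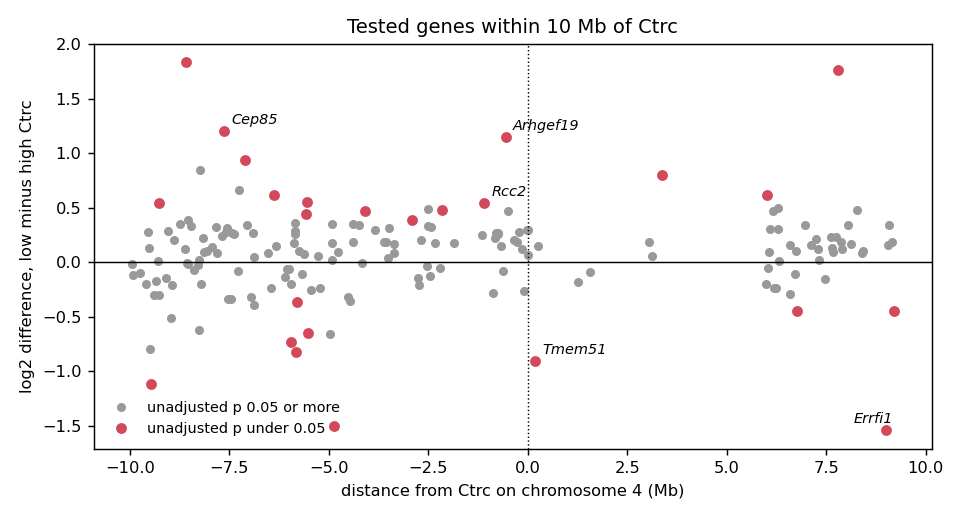
Log2 difference, low minus high Ctrc, of 175 tested genes against their distance from Ctrc on chromosome 4 in Mb, with genes at an unadjusted p under 0.05 in red. The 25 red points lie on both sides of 0, 15 above and 10 below.

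In the chromatin list 1 of 17 tested genes did not overlap between the sides, and in the interferon and class I list 2 of 11, against 3.65% of all tested genes. Dnmt1, the maintenance DNA methyltransferase, was at 84.1 to 120 on the low side and 52.6 to 79.3 on the high side, a difference of 0.62 ± 0.20. Tap1, a peptide transporter for class I antigen presentation, was at 30.8 to 43.7 against 15.9 to 23.7, a difference of 0.93 ± 0.28. Neither passed after adjustment, with 0.526 for both in limma. The difference between the sides was also compared between the genotypes by an interaction term, which limma called for 0 genes. That comparison rests on 1 low library among the wild types and 1 high library among the Daxx deleted, so its unadjusted p-values are not counted here.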

How the data were processed

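The authors deposited 1 table of signal values, read counts divided by a size factor per library; the submitters' processing notes name STAR 2.6.0b, DESeq2 and GRCm38. The sources used here name no read counter. Per the labels, total RNA was sequenced from stranded libraries. Dividing each library by its smallest step returned whole reads for 100% of values, within 0.001. Of 11789 gene IDs, 11781 matched GENCODE M21 without their version. Every listed gene had 5 or more reads in at least 4 libraries, so a gene could be listed through its level on 1 side alone.

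A mean of 10 normalized counts was required, which kept 10466 genes and removed 1321. Limma 3.58.1 (R 4.3.3) was fitted with its trend option on log2(value + 1), with genotype as a term and without it, two-sided, with Benjamini-Hochberg adjustment at 0.05. A fold change on this scale understates low genes. Alternatives used edgeR 4.0.16 and DESeq2 1.42.0 on recovered reads. The fit was tested on simulated data.

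The sides, members and lists were chosen with earlier results of these data known. Named genes are Ctrc, Prss1, Prss3, Daxx, the 5 smallest p-values per direction, all tested trypsinogens, chymotrypsins and elastases, and up to 3 members per other list; others are marked as picked afterwards or stand as examples of their list. Nothing in the labels pairs libraries.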

Additional observations from a re-analysis of the deposited data

Results flagged for a closer look

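In 148 sets of 4 libraries (1 gene on 1 side), the highest or lowest library was compared with the other 3 by Dixon's test. It picked out 11, against 7.4 for independent sets of normally distributed values. The sets here are unlogged counts of picked and partly related genes, so 7.4 is only a rough guide. Of these, 4 are Daxx-deleted library 2 on the low side, which stood above the other low libraries for Reg2 at 29833 normalized counts, for Reg3d at 2357, for the chaperone gene Dnajb9 at 152 and for the fat-cell gene Fabp4 at 124. Wild-type library 2 stood above the other low libraries for the lysosomal protease gene Ctsl at 953 and for Dnmt1 at 120. Daxx-deleted library 4 stood below the other low libraries for the receptor gene Vipr1 at 94.5. Among the high libraries, wild-type library 3 stood above the others for Nupr1 at 4290 and for the clock output gene Dbp at 7.79, wild-type library 1 for the haemoglobin gene Hbb-bs at 383, and wild-type library 4 for the sterol synthesis gene Sqle at 151.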

How the results depend on the processing

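With genotype as a term the count of called genes was 0 under the pseudocounts, TMM, equal totals, quantile normalization, both filters, robust moderation, array weights, edgeR, the Y-linked level as a term and an adjusted p under 0.10. It was 4 with DESeq2 and 1 with no genotype term, and leaving out 1 library gave 0 to 9, with 9 without Daxx-deleted library 2 and 1 each without wild-type library 3 or 4. Without genotype as a term the count of 1 became 4 with equal totals, 8 with array weights, 9 with DESeq2 and 8 at an adjusted p under 0.10, which was added after seeing the data. It became 0 with quantile normalization, a minimum mean of 50, robust moderation, edgeR or the Y-linked level as a term, and leaving out 1 library gave 0 to 32, with 32 without Daxx-deleted library 2 and 8 without wild-type library 4. Prss1, Prss3 or both, which proposed the split, are among the genes called by DESeq2 and without Daxx-deleted library 2. Without genotype as a term the same holds with TMM, equal totals, array weights, both pseudocounts and no filter. It also holds there without Daxx-deleted library 1 or wild-type library 4. The cause was not tested. Leaving out wild-type library 2 or Daxx-deleted library 1 leaves the comparison to 1 genotype.

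Over 71 genes and 21 settings, 1476 values in all, 15 changed sign and 8 newly passed. Daxx was at -0.19 with no genotype term, and 2210010C04Rik at -0.044 with quantile normalization. Leaving out 1 library moved Try10 between -0.18 and 0.90, Gm2663 between -0.21 and 1.40, Cela3a between -0.16 and 0.53, Adcyap1r1 between -0.062 and 0.45, Gcg between -1.46 and 0.92, Tcf7 between -0.52 and 1.66, Hbb-bs between -0.81 and 0.024, and Eif2s3y between -3.59 and 3.99. No paired analysis was possible because the labels give the libraries no shared replicate numbers.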

Other observations

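The genes of the mitochondrial genome, which encode subunits of the respiratory chain, were chosen after their values were seen. All 7 tested had a log2 difference below 0, with a median of -0.62, and 5 of 7 had an unadjusted p under 0.05, against 8.84% of all tested genes, with 0 called by limma. Their summed normalized count was 8153 in wild-type library 2 and 14810, 6927 and 8920 in Daxx-deleted libraries 2, 3 and 4, against 15364, 8913 and 17295 in wild-type libraries 1, 3 and 4 and 13600 in Daxx-deleted library 1. Daxx-deleted library 2 lay among the high libraries and wild-type library 3 among the low ones. mt-Co1, a subunit of cytochrome oxidase, was at 6518 ± 2623 on the low side and 9495 ± 2806 on the high side, and all 7 genes stayed below 0 under every scaling tried. Without Daxx-deleted library 1, 0 of the 7 had an unadjusted p under 0.05. The genes other than mt-Nd6, which lies on the other strand, are transcribed together, so they are not independent of each other.

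Plk2, a kinase gene chosen after its values were seen, was at 519 to 803 in the low libraries and at 270 to 457 in the high ones, a difference of 0.56 ± 0.17.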
